A study of Mus musculus with 8 samples.

Results

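Immature neuron and neurogenesis markers were followed in the cortex and hippocampus of mice expressing a dipeptide repeat protein or its control. The 10 genes are Dcx, Sox11, Sox4, Eomes, Igfbpl1, Neurod1, Draxin, Stmn1, Dlx1 and Dlx2. Each was taken as the row of the deposited gene table with that symbol, so that they are 10 of 43346 genes listed and 10 of 20987 genes tested. The genes were chosen by measured values, since earlier results of these data were known, among them that Dcx follows the share of counts at the Yam1 locus, so their values in the comparisons below are a description and support nothing by themselves. The study compared 4 mice expressing green fluorescent protein (GFP) with 4 mice expressing a fusion of GFP and 100 glycine-arginine dipeptides (GFP-GR100), all aged 1.5 months, with 2 females and 2 males in each group. Such dipeptides arise by translation of the C9orf72 repeat expansion, which causes frontotemporal dementia and amyotrophic lateral sclerosis. The repeats were cloned in frame behind enhanced GFP in an adeno-associated virus vector. No source used here gives the promoter, the strain, the cells that express the protein or the way the vector was given. The labels give each library its own tissue weight, and the combined cortex and hippocampus weighed 111.4 to 126.6 mg in the GFP group and 71.9 to 85.1 mg in the GFP-GR100 group.

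New neurons arise after birth in 2 places of the rodent forebrain, the dentate gyrus of the hippocampus and the wall of the lateral ventricle. In the dentate gyrus, stem cells pass through dividing progenitors that carry the T-box factor Eomes, then turn on the basic helix-loop-helix factor Neurod1 and the SoxC factors Sox4 and Sox11, and become young neurons rich in the microtubule protein doublecortin, the product of Dcx. Neuroblasts from the ventricle wall migrate to the olfactory bulb and carry the homeodomain factors Dlx1 and Dlx2, which also stay on in mature GABAergic interneurons. Several of these genes are therefore not limited to young neurons, and in tissue of this kind fewer cells of a type and less RNA per cell cannot be told apart.

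Total counts per gene table ran from 65880460 to 89113010 per library, and 3 counts corresponded to between 0.0337 and 0.0455 CPM (counts scaled to library size). The members had between 29 and 45786 counts in a library. Yam1, a locus on chromosome 17 that carries ribosomal RNA sequence, took 6.94% and 3.97% of counts in the females GFP 1 and GFP 2, and 2.31% and 2.11% in the males GFP 3 and GFP 4. It took 1.87% and 1.58% in the females GFP-GR100 1 and 2, and 5.20% and 5.82% in the males GFP-GR100 3 and 4. The 4 libraries of high share were thus the GFP females and the GFP-GR100 males. Sex, group and their product accounted for 92.2% of the variance of the log2 Yam1 share, so a difference of the group effect between the sexes cannot be told apart from this share. All 4 females had more Xist than any male.

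The sequences just before the gene starts are shown for the members whose levels the results turn on most. They are Dcx, whose group effect differed between the sexes, Sox11 as the SoxC factor with the largest group difference, Eomes with the widest spread over libraries, and Dlx2 as the factor of GABAergic neuroblasts. They come from RefSeq on GRCm38.p6, the assembly of mm10, and stop before the gene as the deposited table bounds it. Of the 10 members, 8 had an entry. Capitals mark E-box motifs, CANNTG, the general motif of basic helix-loop-helix factors, of which Neurod1 is one. Its middle letters were left free, so a mark does not tell which of these factors could read it. The E-box reads the same on both strands.
Dcx, chrX:143933312-143933469, minus strand: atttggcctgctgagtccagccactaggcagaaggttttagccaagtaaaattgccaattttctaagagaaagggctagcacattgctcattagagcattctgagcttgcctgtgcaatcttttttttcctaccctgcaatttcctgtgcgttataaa
Sox11, chr12:27342719-27342968, minus strand: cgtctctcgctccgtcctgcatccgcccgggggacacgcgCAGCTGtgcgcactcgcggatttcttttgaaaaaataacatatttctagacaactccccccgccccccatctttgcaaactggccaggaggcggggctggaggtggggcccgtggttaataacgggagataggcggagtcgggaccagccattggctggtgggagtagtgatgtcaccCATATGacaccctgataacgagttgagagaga
Eomes, chr9:118477939-118478188, plus strand: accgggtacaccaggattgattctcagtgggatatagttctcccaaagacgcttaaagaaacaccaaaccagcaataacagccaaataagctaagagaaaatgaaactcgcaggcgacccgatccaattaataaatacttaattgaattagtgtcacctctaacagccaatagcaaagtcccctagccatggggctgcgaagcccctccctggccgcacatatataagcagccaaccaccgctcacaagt
Dlx2, chr2:71546755-71547004, minus strand: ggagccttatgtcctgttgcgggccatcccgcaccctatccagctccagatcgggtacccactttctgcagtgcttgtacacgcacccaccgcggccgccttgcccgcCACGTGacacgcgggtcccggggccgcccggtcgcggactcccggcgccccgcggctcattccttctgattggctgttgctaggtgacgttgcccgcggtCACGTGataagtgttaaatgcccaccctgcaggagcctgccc
Sox11 and Dlx2 each held 2 E-boxes in 250 bases. Of all 32851 RefSeq windows of that length 66.2% held at least 1, and the share with 2 or more was not counted. The windows of Dcx and Eomes held 0, and of windows cut to the 158 bases of the Dcx stretch 51.1% held at least 1. AACAAT, a core that SOX factors read, was searched on both strands with its complement ATTGTT, and TAATTA, a core that homeodomain factors read, equals its own complement. Neither was in any of these 4 windows. AACAAT was in 9.42% of all windows of 250 bases and TAATTA in 4.84%. These are matches of letters and say nothing about binding.

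None of the 10 members passed the test of GFP-GR100 against GFP. With edgeR's quasi-likelihood test and an adjusted p threshold of 0.05, 0 of 10 were called higher or lower and 0 of 10 had an unadjusted p under 0.05, against a background of 2.52% of all 20987 tested genes called and 15.6% with an unadjusted p under 0.05. DESeq2, limma-voom and limma-trend on log2(RPKM + 0.1) also called 0 of 10. With no filter on low counts, edgeR called Dcx higher (adjusted p = 0.0412) and Eomes lower (adjusted p = 0.00202). In that setting 1168 of 32096 genes were called higher and 361 lower. The log2 fold changes were 0.33 for Dcx and -0.91 for Eomes, against 0.32 and -0.92 in the main fit. The SEs were smaller, at 0.11 and 0.22 against 0.26 and 1.27. The values of the GFP and GFP-GR100 groups overlapped for each of the 10, where 8.06% of all tested genes had groups that did not overlap. The fitted log2 fold change was above 0 for 5 of 10 members, with a median of 0.00, against a median of -0.02 over all tested genes.

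**Figure D1:**
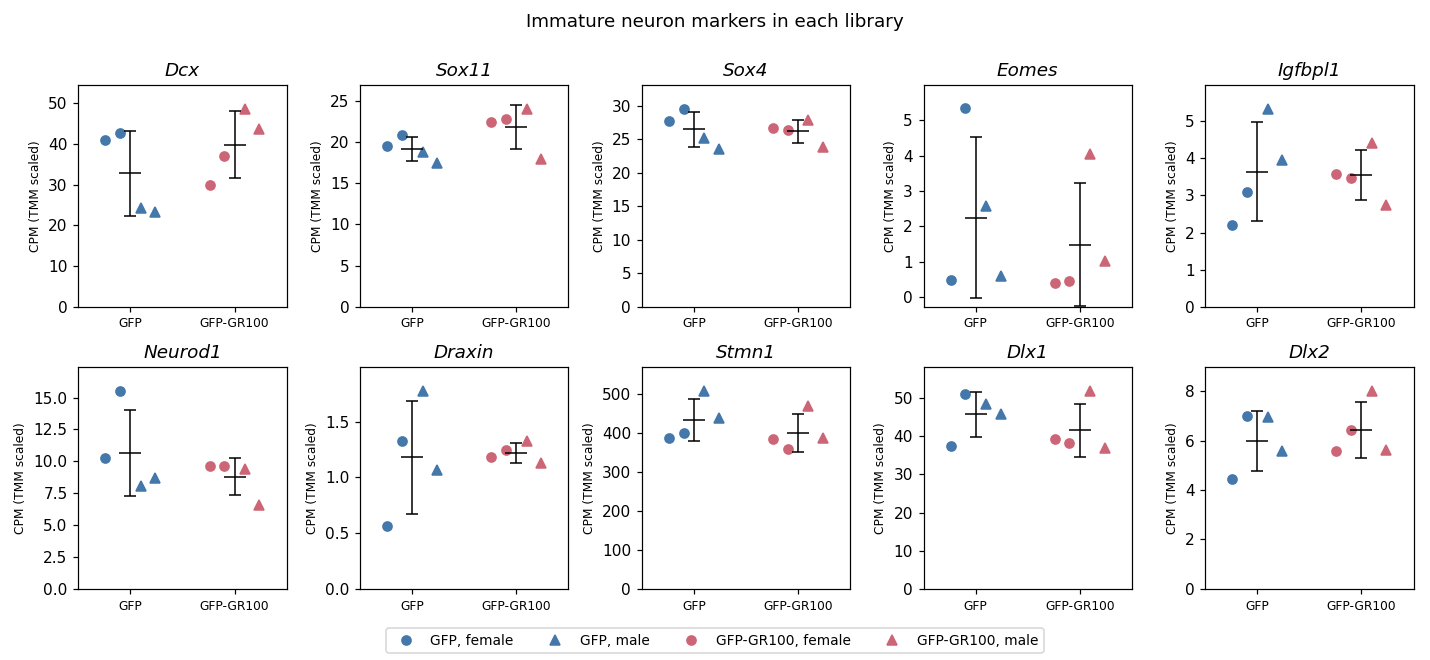
CPM scaled by TMM of the 10 members, 1 point per library, where females are circles and males triangles, and the bar gives each group's mean ± SD (n = 4). The groups overlap in every panel, and Dcx is low in the GFP males, at 24.3 and 23.3 CPM.

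The members differed widely in level. On the RPKM scale, which divides by gene length, Stmn1 led with a mean of 217 ± 27.4 (SD, n = 8 libraries). Next came Dlx1 at 8.09 ± 1.19, Sox4 at 5.49 ± 0.402 and Neurod1 at 3.55 ± 0.909. Dcx stood at 2.87 ± 0.733, Sox11 at 2.46 ± 0.334 and Dlx2 at 2.18 ± 0.417. The lowest means were those of Igfbpl1 at 1.11 ± 0.318, Eomes at 0.448 ± 0.455 and Draxin at 0.232 ± 0.0682. From Neurod1 down to Dlx2, each neighbour in this order differed from the next by less than the larger of their SDs, as did Eomes and Draxin.

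The fitted group differences of Dcx had opposite signs in the 2 sexes, and edgeR called the one in males. This gene, which makes the protein that stabilises microtubules in migrating neurons, lies on chromosome X from 143855842 to 143933311 in mm10. It was at 41.0, 42.8, 24.3 and 23.3 CPM in GFP 1 to 4 and at 29.8, 37.2, 48.7 and 43.8 CPM in GFP-GR100 1 to 4. The GFP females and the GFP-GR100 males were thus high and the GFP males low, with the GFP-GR100 females between. Over both sexes the mean was 32.8 ± 10.5 CPM in GFP and 39.9 ± 8.18 CPM in GFP-GR100 (SD, n = 4; log2 fold change 0.32, SE 0.26, edgeR adjusted p = 0.579). In males the log2 fold change was 0.96 (SE 0.12, edgeR adjusted p = 0.00111), where 9.33% of all tested genes were called. In females it was -0.32 (SE 0.12, edgeR adjusted p = 0.396), where 0.881% were called. The difference between these effects was 1.28 on the log2 scale (SE 0.17, edgeR adjusted p = 0.0179). Dcx was listed with its relation to the Yam1 share known, and that share goes with the product of sex and group. These p-values are therefore a description and support nothing by themselves.

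**Figure D2:**
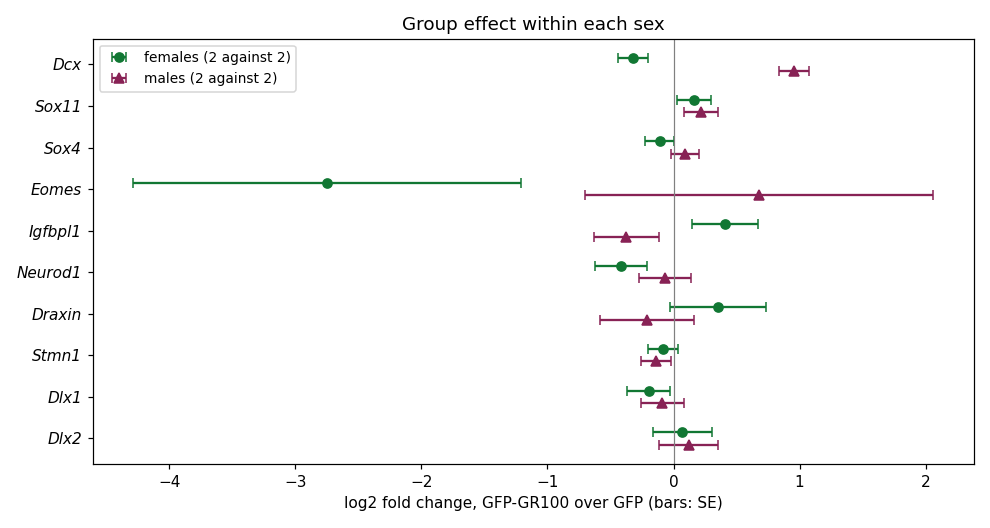
Group effect, as the log2 ratio of GFP-GR100 to GFP, in females (green circles) and in males (purple triangles), with bars for the SE, for the 10 members. Dcx lies at -0.32 in females and 0.96 in males, and Eomes has the widest bars.

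Dcx was 1 of 11 genes called for a difference of the group effect between the sexes, or 0.0524% of those tested. Among the other called genes were the ribosomal RNA loci Yam1 (difference 3.11, edgeR adjusted p = 0.0479) and AY036118 (3.10). Lars2 (2.65) and Rn7sk (2.42), a small nuclear RNA that controls transcription elongation, were also called. AY036118 overlaps Yam1 on the deposited coordinates. Vgf, a neuropeptide precursor, and Nptx2, a pentraxin secreted at active synapses, had differences of -1.41 and -1.38 and were the 2 genes below 0. For Vgf this came from 222 and 230 CPM in the GFP females and 335 and 389 CPM in the GFP males, against 305 and 283 CPM in the GFP-GR100 females and 185 and 170 CPM in the GFP-GR100 males. The Dcx call was lost without GFP 2 (edgeR adjusted p = 0.0519), without GFP-GR100 1 (0.174), with limma-trend on RPKM (limma adjusted p = 0.144) and with the Yam1 share in the model (1.00). The fitted difference stayed above 0 in all 17 alternatives, between 1.09 and 1.84.

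Ordered by Yam1 share, the 4 libraries from 1.58% to 2.31% had Dcx at 37.2, 29.8, 23.3 and 24.3 CPM. The 4 from 3.97% to 6.94% had it at 42.8, 48.7, 43.8 and 41.0 CPM. The libraries of high share thus lay above those of low share, and neither set of 4 rose in step with the share. Over the 8 libraries the Pearson r of log2 Dcx CPM with log2 Yam1 share was 0.70 and the Spearman rho 0.62, and r was 0.66 without GFP 1 and GFP-GR100 4, the 2 libraries farthest from the median share. The relation is part of how the genes were chosen, so it was not tested. Within the 4 libraries of low share the GFP-GR100 mean of Dcx was 1.41 times the GFP mean, and within the 4 of high share 1.1 times, but in each set of 4 one group is all female and the other all male. With the log2 Yam1 share as a covariate the Dcx log2 fold change was 0.37 (SE 0.11, edgeR adjusted p = 0.0876), where 4.61% of all tested genes were called. For the other 9 members r over the 8 libraries lay between -0.55 for Igfbpl1 and 0.33 for Eomes. Without GFP 1 and GFP-GR100 4 it lay between 0.08 for Igfbpl1 and 0.88 for Eomes, and Eomes, Dlx1 (0.87) and Dlx2 (0.78) were then above Dcx. The relation is thus not particular to Dcx over those 6 libraries.

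**Figure D3:**
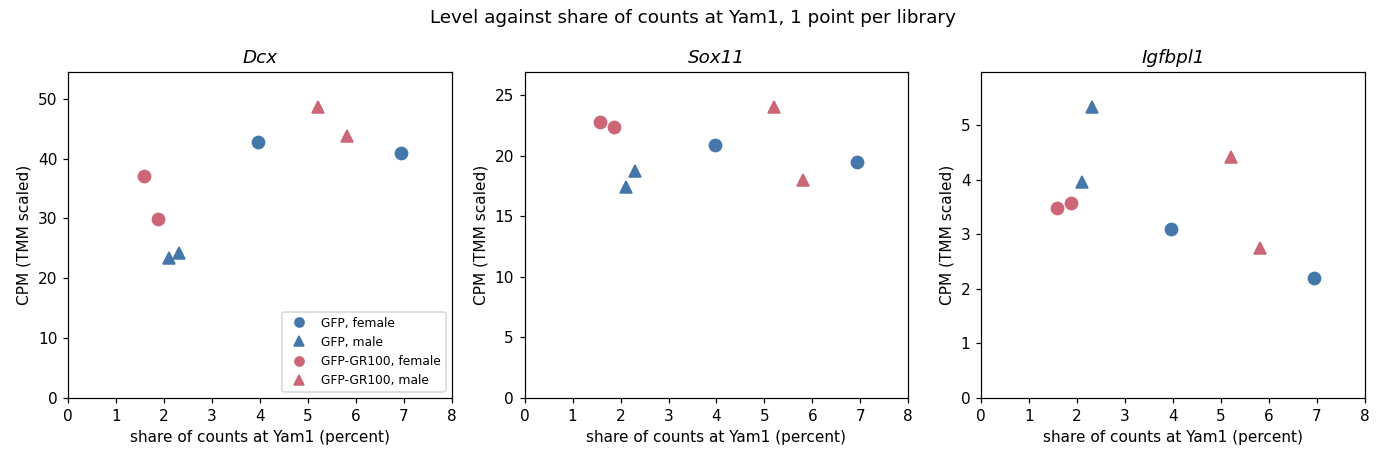
CPM of Dcx, Sox11 and Igfbpl1 against the percent of counts at Yam1, 1 point per library, coloured by group and shaped by sex. The 4 libraries with 3.97% or more lie at 41.0 CPM or above for Dcx, while Sox11 has no such split.

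The SoxC factors, which turn on genes of neuronal differentiation, had narrow ranges. Sox11, on chromosome 12 from 27334264 to 27342574, was at 19.5, 20.9, 18.7 and 17.4 CPM in GFP 1 to 4 and at 22.4, 22.8, 24 and 18.0 CPM in GFP-GR100 1 to 4. Of the GFP-GR100 libraries, 1 to 3 lay above the highest GFP library and GFP-GR100 4 lay near the lowest. The mean was 19.1 ± 1.45 against 21.8 ± 2.65 CPM (log2 fold change 0.19, SE 0.10, edgeR adjusted p = 0.369), and the log2 fold change was 0.09 without GFP-GR100 3. Sox4, on chromosome 13 from 28948919 to 28953713, was at 26.5 ± 2.68 and 26.2 ± 1.68 CPM (log2 fold change -0.01, SE 0.09). Its highest library, at 29.6 CPM, was 1.26 times its lowest, the smallest such ratio among the members. The antisense gene Gm26735 overlaps Sox4, at 11.7 to 16.4 CPM, and no source used here gives the use of strand in counting. Their relative Sox12 was not called either.

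Eomes, the T-box factor of intermediate progenitors, had the widest spread of the members. It lies on chromosome 9 from 118478212 to 118486132 and was at 0.478, 5.35, 2.58 and 0.596 CPM in GFP 1 to 4 and at 0.416, 0.457, 4.04 and 1.04 CPM in GFP-GR100 1 to 4. GFP 2, GFP 3 and GFP-GR100 3 were high and the highest library had 12.9 times the lowest, with both groups on each side. The log2 fold change was -0.92 with an SE of 1.27 (edgeR adjusted p = 0.758), and it was 0.41 without GFP 2 and -1.83 without GFP-GR100 3. Projection neurons of the olfactory bulb also express Eomes. Of the markers of that region, a list of 8 of which 7 were tested, Tbx21, Doc2g, Cdhr1 and Nmb were highest in the same 3 libraries and the other 3 were not: Kctd12 was at 77.2 CPM in GFP 3 and at 103 to 105 CPM in GFP 1 and GFP-GR100 1 and 2, and Th and Slc6a3 were highest in GFP-GR100 4. The 4 were picked with their values known. Tbx21, a T-box factor of those projection neurons that also stands in the T and natural killer cell list, was at 1.27, 0.921 and 0.982 CPM in these and at 0.0496 to 0.248 CPM in the other 5. Doc2g was at 13.9, 12.8 and 12.5 CPM against 2.76 to 7.0 CPM, and Cdhr1, a cadherin of the bulb, at 25.9, 15.6 and 15.5 CPM against 6.54 to 8.61 CPM. The median score of the list, its log2 CPM relative to the mean over libraries, was 0.74, 0.55 and 0.44 in these 3 and -0.91 to 0.02 in the others. None of the 7 was at 0, 0 of 7 were called by edgeR, and the summed level ran from 86.8 to 154 CPM in GFP and from 119 to 137 CPM in GFP-GR100, most of it from Kctd12. The part of this tissue in the Eomes values was not tested.

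Neurod1, a basic helix-loop-helix factor that granule neurons need to mature, stood apart in GFP 2. It lies on chromosome 2 from 79452521 to 79456751 and was at 10.2, 15.5, 8.05 and 8.72 CPM in GFP 1 to 4 and at 9.60, 9.66, 9.38 and 6.59 CPM in GFP-GR100 1 to 4. GFP 2 was the highest and GFP-GR100 4 the lowest. The mean was 10.6 ± 3.39 against 8.81 ± 1.48 CPM (log2 fold change -0.25, SE 0.15, edgeR adjusted p = 0.456), and the log2 fold change was -0.08 without GFP 2. Granule neurons of the cerebellum also express Neurod1, and the median score of the tested cerebellum markers was highest in GFP 2. Gabra6, a GABA-A receptor subunit of those neurons, was at 12.8 CPM in GFP 2 and at 0 to 0.311 CPM in the other libraries, with 0 counts in GFP 4 and GFP-GR100 1. Cbln3, a secreted synaptic organiser of the same cells, was at 36.7 CPM in GFP 2 and at 0.509 to 1.28 CPM elsewhere. Cbln3 was picked with its values known, and the text gives no levels of the other tested markers one by one. Of 9 listed cerebellum markers 8 were tested and 0 were called by edgeR. The median score of those tested was 1.09 in GFP 2 and -0.65 to 0.16 in the other libraries. The summed level of the listed markers was 170 to 281 CPM in GFP, highest in GFP 2, and 164 to 202 CPM in GFP-GR100. Their part in the Neurod1 value was not tested. Cerkl, on the same strand, and Gm26755, on the other, overlap Neurod1, at 4.05 to 6.82 and 0.658 to 2.0 CPM.

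**Figure D4:**
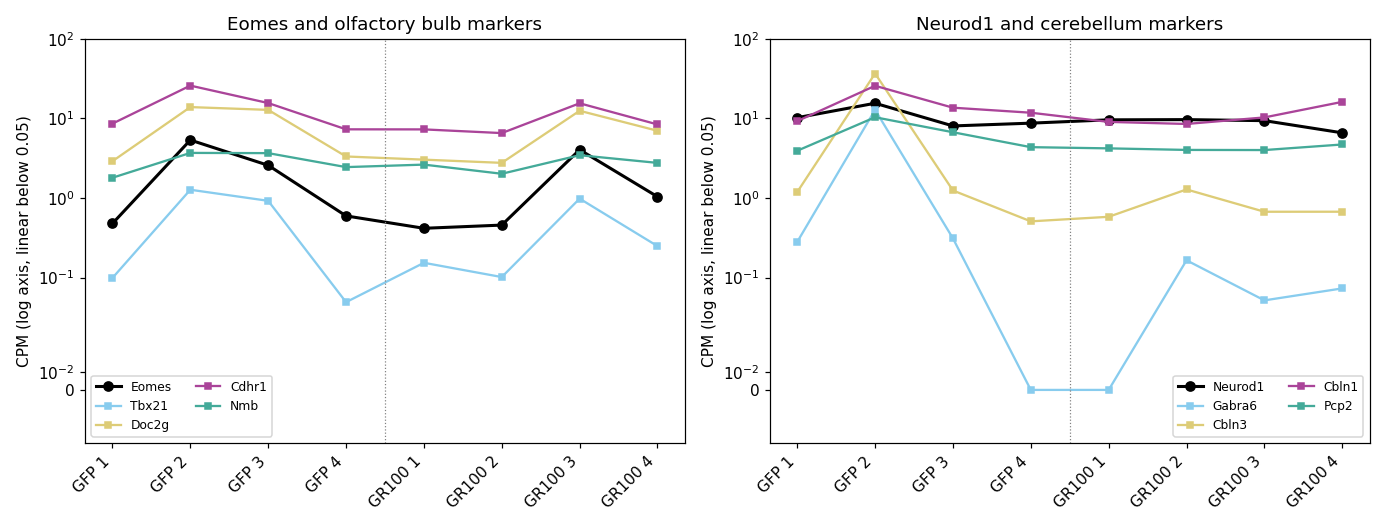
CPM per library, on an axis that is logarithmic above 0.05, of Eomes with 4 olfactory bulb markers (left) and of Neurod1 with 4 cerebellum markers (right); GR100 on the axis stands for GFP-GR100. Eomes and these 4 of the 7 tested bulb markers are high in GFP 2, GFP 3 and GFP-GR100 3, and Neurod1, Gabra6 and Cbln3 are highest in GFP 2.

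Igfbpl1, Draxin and Stmn1, whose products are secreted proteins or act on the cytoskeleton, all lie on chromosome 4, and none of their groups separated. Igfbpl1, which encodes a secreted relative of the insulin-like growth factor binding proteins, was at 2.19, 3.09, 5.34 and 3.96 CPM in GFP 1 to 4 and at 3.57, 3.47, 4.42 and 2.75 CPM in GFP-GR100 1 to 4. The GFP-GR100 libraries lay within the GFP range. Its log2 fold change was 0.01 (SE 0.22), with 0.41 in females (SE 0.26) and -0.37 in males (SE 0.26), and the difference between the sexes did not pass (edgeR adjusted p = 0.307). Draxin, a secreted guidance molecule that binds netrin receptors, was at 0.561, 1.32, 1.78 and 1.07 CPM in GFP 1 to 4 and at 1.13 to 1.33 CPM over the 4 GFP-GR100 libraries. GFP 1 was low and GFP 3 high. The log2 fold change was 0.06 (SE 0.28). Mad2l2, on the other strand, overlaps the first part of Draxin.

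Stmn1, which encodes the microtubule-destabilising protein stathmin, is made by young neurons and by other cells of the adult brain. It lies from 134468320 to 134473843 and was at 387, 401.2, 508 and 438 CPM in GFP 1 to 4 and at 384, 359, 469 and 389 CPM in GFP-GR100 1 to 4. GFP 3 and GFP-GR100 3, both males, were the highest of their groups. The log2 fold change was -0.11 (SE 0.09, edgeR adjusted p = 0.565). Its relatives Stmn2, Stmn3 and Stmn4 had log2 fold changes of -0.20 (SE 0.09), -0.21 (SE 0.10) and -0.04 (SE 0.09), and none passed. Gm23634, on the same strand, lies inside Stmn1, at 16.7 to 30.2 CPM.

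Dlx1 and Dlx2 encode homeodomain factors of GABAergic neurons and lie 9427 bases apart on chromosome 2, on opposite strands. Dlx1 was at 37.6, 51.2, 48.6 and 45.7 CPM in GFP 1 to 4 and at 39.3, 38.1, 51.9 and 36.8 CPM in GFP-GR100 1 to 4. GFP-GR100 3 was level with GFP 2, and the other GFP-GR100 libraries lay near GFP 1, the lowest of its group. The log2 fold change was -0.14 (SE 0.12, edgeR adjusted p = 0.580). Dlx2 was at 4.45, 6.98, 6.96 and 5.60 CPM in GFP 1 to 4 and at 5.60, 6.44, 8.01 and 5.63 CPM in GFP-GR100 1 to 4, with a log2 fold change of 0.10 (SE 0.17). For both genes the lowest GFP library was GFP 1 and the highest GFP-GR100 library was GFP-GR100 3. The antisense gene Dlx1as overlaps Dlx1, at 8.56 to 12.4 CPM. The paralogues Dlx5 and Dlx6 were not called.

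The comparison of males with females was not used to choose the members. None of the 10 was called (edgeR), where 4.18% of all tested genes were, and 2 had an unadjusted p under 0.05, where 25.2% of all tested genes did. Neurod1 had the smallest p, with 11.3 CPM in females and 8.18 CPM in males (log2 male over female -0.45, SE 0.15, edgeR adjusted p = 0.103), and DESeq2 called it (adjusted p = 0.0408). It was -0.28 without GFP 2, the female with the highest median score of cerebellum markers. Stmn1 was at 383 CPM in females and 451 CPM in males (log2 0.23, SE 0.09, edgeR adjusted p = 0.139). With no filter edgeR also called Neurod1 (adjusted p = 0.0138) and Eomes (adjusted p = 0.0242). In that setting 1094 of 32096 genes were called higher in males and 1636 higher in females. DESeq2 called 1102 and 1541 of 20987 in these directions. Limma-voom and limma-trend on RPKM called 0 members.

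The members did not vary as 1 block over the 8 libraries. Among their 45 pairs, 34 had a Pearson r of log2 CPM above 0. The highest were 0.84 for Eomes with Dlx1, for Sox4 with Neurod1 and for Draxin with Dlx2, and the lowest -0.52 for Dcx with Igfbpl1. These are descriptions over 8 libraries that share the group, sex and Yam1 differences. Among 13819 genes of at least 1 CPM, those most like Dcx were Tmem241 (r 0.98), Rorb (0.96), Zfp740 (0.96), Mybl1 (0.95) and Orc4 (0.95). Rorb, a nuclear receptor of cortical layer neurons, was at 45.4 and 46.2 CPM in the GFP females and at 29.6 and 33.9 CPM in the GFP males. Its level was 36.7 and 45.7 CPM in the GFP-GR100 females and 51.6 and 46.6 CPM in the GFP-GR100 males. Those most like Eomes were Doc2g (0.97), S100a5 (0.97), Sp8 (0.96), Cdhr1 (0.95) and Frmd7 (0.94), of which Doc2g and Cdhr1 stand in the olfactory bulb list and Sp8 in that of GABAergic neuroblasts. For Sox11 they were Ciart (0.96), a circadian repressor, Krt77, Rad51ap2, Zfp558 and Zfp46. For Neurod1 the list was led by Fbln2 (0.98) and Mybpc3 (0.94), followed by Mid1, Sox8 and Elf2. Dlx1 was matched best by Zkscan14 (0.95) and Zfp354b (0.94), then Inafm2, Cbx8 and Akr1c18.

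Genes of 7 further lists, 121 in all, were not called by edgeR either. The lists cover neurogenesis, and also proliferation, guidance, GABAergic neurons and mature dentate granule cells. With edgeR 0 of 121 passed in GFP-GR100 against GFP, and 24 had an unadjusted p under 0.05, of which 9 had a log2 fold change above 0 and 15 below. Over all tested genes 2.52% passed, 15.6% had an unadjusted p under 0.05 and 45.4% a log2 fold change above 0. Limma-voom and limma-trend on RPKM called 0, and DESeq2 called Neurog2 higher and Lpar1 lower. Neurog2, a proneural factor that acts upstream of Eomes and Neurod1, had the smallest p of the 20 progenitor and neuroblast genes. It was at 0.731 ± 0.193 CPM in GFP and 1.38 ± 0.168 CPM in GFP-GR100 (log2 fold change 0.92, SE 0.23, edgeR adjusted p = 0.0593), with the GFP libraries at 0.676, 0.567, 1.01 and 0.670 CPM and the GFP-GR100 libraries at 1.18 to 1.59 CPM. The groups of Neurog2 did not overlap, and it was called in 7 alternatives, among them DESeq2, no filter on low counts and the Yam1 share in the model. The median log2 fold change of this list was 0.00.

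The 18 genes of neural stem and radial glia-like cells had a median of 0.02. Lpar1, a lysophosphatidic acid receptor that also marks oligodendrocytes, had the smallest p (log2 fold change -0.38, SE 0.10, edgeR adjusted p = 0.0842). The stem cell factors Sox2 and Pax6 had log2 fold changes of 0.18 and 0.02, with SEs of 0.09 and 0.14. The 22 proliferation genes had the lowest median of the 7 lists, at -0.23, with 6 of 22 above 0. Mki67, a marker of dividing cells, was at 3.55 ± 0.726 and 3.20 ± 0.690 CPM, and Ccnb1, a mitotic cyclin, at 1.18 ± 0.250 and 0.695 ± 0.109 CPM (log2 fold change -0.76, SE 0.24, edgeR adjusted p = 0.143). The median was -0.28 in females and -0.24 in males.

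Growth and cytoskeleton genes of young neurons had a median of -0.10, with 4 of 20 above 0. The median was -0.004 in females and -0.21 in males, a contrast that cannot be told apart from the Yam1 share. Tubb3, the neuronal beta-tubulin, was at 367 ± 50.9 and 289 ± 30.8 CPM (log2 fold change -0.33, SE 0.11, edgeR adjusted p = 0.174), with -0.11 in females (SE 0.12) and -0.56 in males (SE 0.12, edgeR adjusted p = 0.0166). The difference between the sexes did not pass (edgeR adjusted p = 0.222). With the Yam1 share in the model edgeR called Tubb3 lower, where 4.61% of all tested genes were called. Marcks, a regulator of actin at the membrane, was at 157 ± 12.2 and 186 ± 8.17 CPM (0.25, SE 0.08, edgeR adjusted p = 0.166). Dclk1 and Dclk2, relatives of Dcx, had log2 fold changes of -0.22 (SE 0.11) and 0.09 (SE 0.08). The 18 genes of GABAergic neuroblasts had a median of -0.03. The 10 netrin and draxin guidance genes had a median of -0.07, led by Ntn3 (0.24, SE 0.10), and the Draxin receptor Dcc was at 9.86 ± 5.91 and 7.54 ± 2.17 CPM. The 13 genes of mature dentate granule cells had a median of -0.08, with 1 of 13 above 0, where 45.4% of all tested genes were. Of these, 0 had an unadjusted edgeR p under 0.05, and Lct had the smallest (-0.37, SE 0.18).

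**Figure D5:**
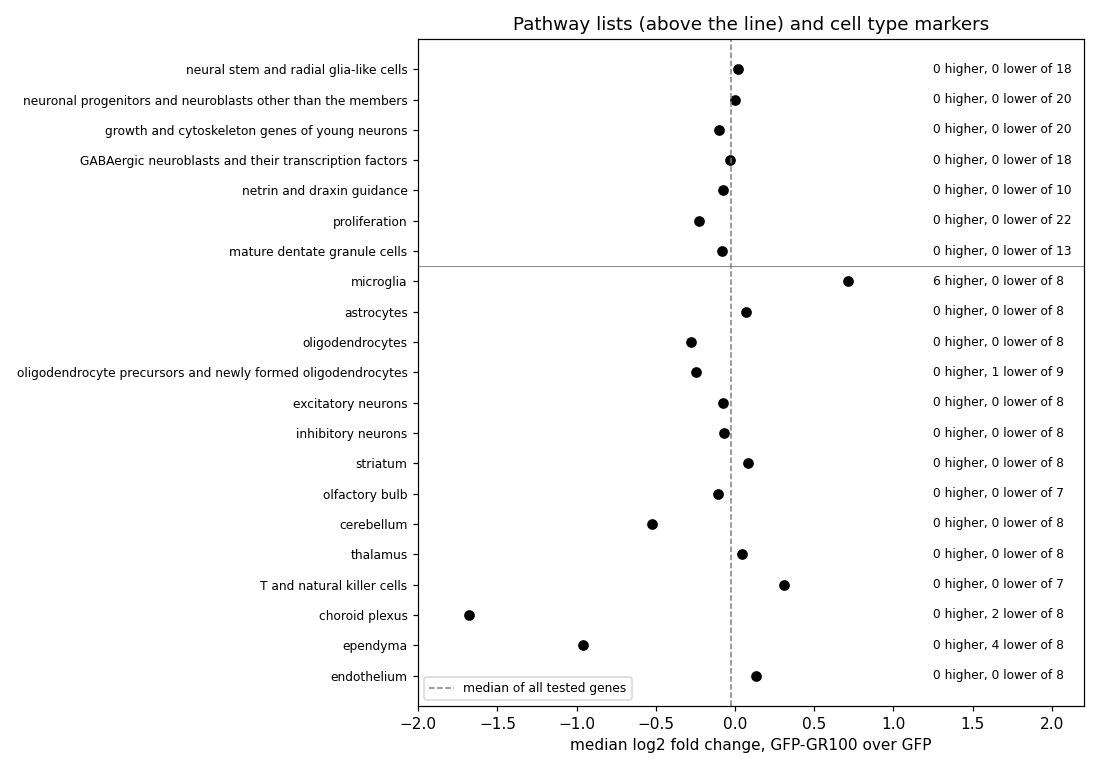
Median group effect, the log2 ratio of GFP-GR100 to GFP, for 7 pathway lists (above the line) and 14 lists of cell type markers, with the number of genes called by edgeR written beside each. The 7 pathway lists lie between -0.23 and 0.02 with 0 called, while microglia lie at 0.71 with 6 of 8 called.

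Markers of other cells moved in some lists. Of 8 microglia markers 6 rose, among them C1qa, a complement component, from 47.8 to 103 CPM (log2 fold change 1.15, SE 0.14, edgeR adjusted p = 0.00140), and the fractalkine receptor Cx3cr1 (0.64, SE 0.08). Their summed level was 365 to 519 CPM in GFP and 635 to 709 CPM in GFP-GR100. Of 8 ependymal markers 4 were called lower and of 8 choroid plexus markers 2, with medians of -0.96 and -1.68. In each of these 2 lists 0 of 8 had a log2 fold change above 0, and 7 of 8 had an unadjusted edgeR p under 0.05. Over all tested genes 2.19% were called higher and 0.324% lower. The choroid plexus count was 1 without GFP-GR100 2, 3 or 4, 3 without GFP-GR100 1, 6 without GFP 4, and 7 with DESeq2 or with no filter. The summed choroid plexus level was 129 to 367 CPM in GFP and 32.6 to 88.7 CPM in GFP-GR100, and the ependymal one 25.9 to 44.7 and 21.4 to 25.0 CPM. Of the 9 markers of early oligodendrocyte lineage 1 had a log2 fold change above 0, and Gpr17 alone was called lower (log2 fold change -0.36, SE 0.09, edgeR adjusted p = 0.0453). Without any 1 of GFP 1, 2 and 4 or GFP-GR100 1, 2 and 3, 0 of the 9 were called lower. No marker of astrocytes, oligodendrocytes, excitatory or inhibitory neurons, striatum, thalamus, T and natural killer cells or endothelium was called by edgeR. GFP-GR100 4 was high in the 8 oligodendrocyte markers, with a sum of 7727 CPM against 4873 to 5349 CPM in the other GFP-GR100 libraries, and without it 2 of these 8 and 3 of the 9 early-lineage markers were called lower. The part of these cells in the members' values was not tested.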

How the data were processed

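Stranded total RNA libraries of cortex and hippocampus were sequenced as paired ends on a HiSeq 2000, per the labels' protocols. The deposited table holds raw gene counts and RPKM that the authors made with mm10 coordinates. CASAVA, TopHat2 2.1.0, DESeq2 and R 3.4.1 are named in the submitters' processing notes, and no source used here gives the gene counter, annotation release or use of strand. All count columns were used. The counts were fitted with edgeR 4.0.16 (R 4.3.3) by the robust quasi-likelihood test with sex and group as terms, TMM scaling and filterByExpr at a minimum count of 10, which kept 20987 of 43346 genes. P-values were adjusted by Benjamini-Hochberg over all tested genes at 0.05, and adding the sex-by-group product gave the difference between the sexes. SEs are the log2 fold change over the root of the F statistic. CPM are TMM scaled. DESeq2 1.42.0, limma 3.58.1 (voom, and trend on log2(RPKM + 0.1)), other filters and scalings, and leaving out libraries were the alternatives. The code was tested on simulated data. The members and gene lists were chosen with earlier results of these data known. Named list genes were the up to 3 called genes of a list, otherwise the gene of smallest p, and further list genes named for their roles were chosen with their values known. Some genes that this rule would name are not reported here. Genes most like a member were the 5 of highest Pearson r with a mean of at least 1 CPM. Replicate numbers follow accession order. Within groups, libraries differed far beyond counting noise (chi-square per degree of freedom at least 16.9). The labels do not say how the animals were bred or housed, so p-values measure the spread between these samples. Intervals and the limit of 3 counts cover counting error only.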

Additional observations from a re-analysis of the deposited data

Results flagged for a closer look

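Neurod1 in GFP-GR100 4, at 6.59 CPM, lay apart from the other GFP-GR100 libraries at 9.38 to 9.66 CPM, with a gap of 0.907 of the group's range. Dlx1 in GFP-GR100 3, at 51.9 CPM, lay apart from the others at 36.8 to 39.3 CPM, with a gap of 0.833 of the range. Both pass Dixon's critical value for 4 samples, and of the 20 groups tested chance alone flags about 1 in 20. The group effect on Dcx differed between the sexes, by 1.28 on the log2 scale (edgeR adjusted p = 0.0179), and this difference cannot be told apart from the Yam1 share.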

How the results depend on the processing

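The group effect of Dcx stayed above 0 in 18 of 18 alternatives, from 0.16 to 0.55, as did that of Sox11, from 0.09 to 0.29. Those of Dlx1 and Neurod1 stayed below 0 in 18 of 18, the latter from -0.39 to -0.08. Eomes turned sign without GFP 2, and Dlx2, Draxin, Igfbpl1, Sox4 and Stmn1 also had both signs over the alternatives. The main counts for GFP-GR100 against GFP were 460 genes higher and 68 lower. They were 1168 and 361 with no filter, where 1 member was higher and 1 lower, 724 and 200 with DESeq2, and 699 and 268 with the Yam1 share in the model. The lower count was 36 at a mean of at least 1 CPM, 32 with limma-trend, 35 without sex in the model and 115 without both GFP 3 and GFP-GR100 4. Leaving out 1 library gave 304 to 514 higher, 19 to 77 lower (fewest without GFP-GR100 2 or 3) and 0 members. The difference between the sexes called 11 genes and 1 member. It called 1353 genes and 2 members with no filter, 567 genes with DESeq2, 1 gene and 0 members with the Yam1 share, 0 members with limma-trend and 162 genes without both libraries. Leaving out 1 library gave 1 gene (without GFP-GR100 1) to 828 genes (without GFP-GR100 3) and 0 to 1 members. The sex effect called 386 genes higher in males and 491 in females. These were 1094 and 1636 with no filter, with 1 member each way, and 1102 and 1541 with DESeq2, with 1 member higher in females. They were 8 and 14 with limma-trend, 1341 and 1709 with the Yam1 share, and 152 and 242 without both libraries. The count higher in males was 610 at a mean of at least 1 CPM, 225 with limma-voom and 250 without Yam1, AY036118 and Lars2. Leaving out 1 library gave 5 (without GFP 1) to 957 (without GFP-GR100 4) genes higher in males and 7 (without GFP-GR100 2) to 935 (without GFP-GR100 4) higher in females, with 0 members. The cause of these shifts was not tested. No paired analysis was possible because the replicate numbers follow accession order and the labels pair no libraries. With 29 to 396 counts, Eomes had the least depth of the members beside Draxin.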

Other observations

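GFP-GR100 4 stood apart in several genes of the thalamus and of dopamine neurons, picked with their values known. Tcf7l2, a transcription factor of thalamic neurons, was at 27.4 CPM there and at 4.45 to 8.08 CPM in the other 7 libraries. Slc17a6, the vesicular glutamate transporter of subcortical neurons, was at 64.6 CPM against 22.0 to 34.6 CPM, and Prkcd, a protein kinase C of thalamic relay neurons, at 60.3 CPM against 14.6 to 38.8 CPM. Slc6a3, the dopamine transporter, was at 21.5 CPM against 0.223 to 0.986 CPM, and Th, the rate-limiting enzyme of dopamine synthesis, at 13 CPM against 2.61 to 8.71 CPM. The summed level of the 8 thalamus markers was 354 CPM in this library and 157 to 240.1 CPM in the others. Ramp3 of that list did not follow, at 18.1 CPM against 13.5 to 21.1 CPM, and neither did Rora, at 84.8 CPM against 48.2 to 95.6 CPM. The 8 striatum markers summed to 1339 CPM in this library, within the 1299 to 1704 CPM of the others. This was also the library with the lowest Neurod1, at 6.59 CPM. Dlx1 was lowest there too, at 36.8 CPM, but close to GFP 1 at 37.6 CPM and GFP-GR100 2 at 38.1 CPM. The part of these regions in those values was not tested.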
